A study of Mus musculus with 10 samples.

Results

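The CC chemokines described here are 10 genes, Ccl2, Ccl3, Ccl4, Ccl5, Ccl6, Ccl7, Ccl8, Ccl9, Ccl11 and Ccl12, picked by name among the 51789 genes of the count table. The rule used no measured value, although the list was drawn up with earlier results of these data known. They were measured by RNA-Seq in cardiomyocytes, the contractile cells of the heart, isolated 4 days after myocardial infarction (MI) from 5 TgGRK5-MI mice and 5 NLC-MI mice. TgGRK5 mice carry a transgene that overexpresses GRK5, a G protein-coupled receptor kinase, in cardiomyocytes, and NLC mice are their non-transgenic littermates. All 10 mice had an MI, so no value without injury enters these comparisons. The study used young adult mice of both sexes. The promoter of the transgene, and the age and sex of the mouse behind each library, are not given in the sources used here. The comparison asks whether the levels of these chemokine transcripts after MI differed with the transgene.

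CC chemokines are small secreted proteins named for a pair of adjacent cysteines near their start. They bind G protein-coupled receptors of the CCR family on leukocytes and direct the movement of these cells into tissue. After MI, Ccl2 and Ccl7 are best known for recruiting monocytes that carry Ccr2, and resident and recruited macrophages are known sources of many of these ligands. Atypical receptors bind chemokines without coupling to G proteins, and GRKs and arrestins turn off the signalling of the typical ones.

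All 10 genes lie on chromosome 11 of the mouse (GRCm38, positions from GENCODE M21), in 2 blocks. The first block runs over 81229 bases and holds Ccl2 (82035571 to 82037453), Ccl7 (82045712 to 82047525), Ccl11 (82057823 to 82062955), Ccl12 (82101845 to 82103400) and Ccl8 (82115185 to 82116799), all on the plus strand. The second begins 1408978 bases further on and runs over 138906 bases. It holds Ccl5 (83525778 to 83530518), Ccl9 (83572919 to 83578636), Ccl6 (83587882 to 83593087) and Ccl3 (83647844 to 83649355) on the minus strand, and Ccl4 (83662584 to 83664683) on the plus strand. No exon of the 10 genes overlapped an exon of another gene. No run of 50 transcript bases was shared between any of the 10 genes. Only Ccl9 shared such runs with other genes of the annotation, 59 of its 2996 runs with 463 genes. Reads from those bases could have been counted elsewhere, and reads of those genes could have been counted for Ccl9. This was not tested.

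The RefSeq table of promoters held 5 of the 10 genes, Ccl3, Ccl6, Ccl8, Ccl9 and Ccl12. The 250 bases before the annotated start are shown for 4 of them, because Ccl6 and Ccl9 are neighbours with 1 of the higher correlations of log2 CPM across libraries (r = 0.807), and Ccl12 and Ccl8 are neighbours with a correlation near 0 (r = -0.046). Neither value passed a test over all pairs. Sequences are from GRCm38.p6 and read 5′ to 3′ on the strand of the gene. Capitals mark every match, on either strand, to the 8 motifs named in the next paragraph.

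Ccl6 (chr11:83593088-83593337, minus strand): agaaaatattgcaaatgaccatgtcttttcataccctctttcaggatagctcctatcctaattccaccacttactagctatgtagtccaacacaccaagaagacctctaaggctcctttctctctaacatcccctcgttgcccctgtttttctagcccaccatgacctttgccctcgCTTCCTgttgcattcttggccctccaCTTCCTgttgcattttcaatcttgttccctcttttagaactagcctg

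Ccl9 (chr11:83578637-83578886, minus strand): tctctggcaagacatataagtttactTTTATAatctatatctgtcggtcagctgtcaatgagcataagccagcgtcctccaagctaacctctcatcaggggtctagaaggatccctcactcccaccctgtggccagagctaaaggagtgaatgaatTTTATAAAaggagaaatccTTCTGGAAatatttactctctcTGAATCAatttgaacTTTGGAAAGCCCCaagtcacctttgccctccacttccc

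Ccl12 (chr11:82101595-82101844, plus strand): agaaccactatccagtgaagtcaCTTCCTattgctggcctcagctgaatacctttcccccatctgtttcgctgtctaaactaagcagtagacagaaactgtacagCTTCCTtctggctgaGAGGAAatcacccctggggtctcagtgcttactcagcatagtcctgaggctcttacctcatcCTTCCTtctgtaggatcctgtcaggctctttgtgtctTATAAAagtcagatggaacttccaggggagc

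Ccl8 (chr11:82114935-82115184, plus strand): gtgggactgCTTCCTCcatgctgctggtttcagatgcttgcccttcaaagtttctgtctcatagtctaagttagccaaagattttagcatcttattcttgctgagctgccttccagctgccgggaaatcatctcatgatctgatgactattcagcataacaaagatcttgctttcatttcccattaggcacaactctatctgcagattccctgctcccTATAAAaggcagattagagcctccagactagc

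Of the motifs, 6 were chosen first, namely NF-kappaB, AP-1 (TGANTCA), PU.1 (GAGGAA), C/EBP (TTNNGNAA), the TATA box (TATAAA) and the interferon response element. The other 2, a shorter NF-kappaB core (GGANTTTCC) and the ETS core (AGGAAG), were added after the promoters had been read, the ETS core because its reverse complement was seen 2 times before Ccl6. Their matches are therefore no more than a description of these letters. The NF-kappaB and interferon motifs have 10 letters, several of them open, and are given by name. A TATAAA lay 31 to 26 bases before the start of Ccl12 and 32 to 27 bases before that of Ccl8. Ccl9 held 3 TATA box matches, of which 2 overlapped. They lay 224 to 219, 94 to 89 and 92 to 87 bases before its start, all farther from it than those of Ccl12 and Ccl8. The TATA box matched 3 of the 5 promoters, against 12.4% of the 32851 promoters in the table. PU.1 matched 3 of 5 (23.3% of all), C/EBP 2 of 5 (36.9%), AP-1 1 of 5 (6.75%), NF-kappaB 1 of 5 (4.11%) and the interferon response element 0 of 5 (2.98%). Of the added motifs, the ETS core matched 3 of 5 (29.5%) and the NF-kappaB core 0 of 5 (1.07%). In Ccl6 the capitals are the 2 ETS core matches alone, which begin 73 and 47 bases before the start. In Ccl8 the PU.1 match overlapped the ETS match, and in Ccl9 a C/EBP match overlapped the NF-kappaB match.

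Libraries held 7968779 to 23381527 counts, with NLC-MI replicate 3 the shallowest and TgGRK5-MI replicate 4 next at 9114469. A count of 3, taken as the smallest amount a library could show, was worth 0.121 to 0.393 CPM (counts relative to the library's size, with edgeR's TMM factors). Grk5 stood at 60.4 ± 9.50 CPM in the NLC-MI group against 1222 ± 472 CPM with the transgene (SD, n = 5 each), in the direction of the labels. The cardiomyocyte markers summed to between 41778 and 108666 CPM in every library. Fibroblast markers were also present, at 2720 to 16324 CPM. Macrophage markers summed to between 745 and 2586 CPM.

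Transcripts of all 10 CC chemokines were detected in all 10 libraries, with at least 5 counts in each, and all 10 passed the filter on low counts. Levels of different genes were compared per kilobase of exon. The length was that of all annotated exons of a gene together, 511 bases for Ccl8 and 3045 for Ccl9. It need not be the length of the transcript expressed, and the order of the genes depends on it. On this scale Ccl6 was the most abundant with a mean level of 35.2 CPM per kb over the 10 libraries. It lay above Ccl2, the next gene at 17.4 CPM per kb, in 9 of 10 libraries. The exception was NLC-MI replicate 3, with Ccl2 at 28.2 and Ccl6 at 27.5 CPM per kb. In NLC-MI replicate 1 Ccl8 was above Ccl6, at 30.5 against 29.6 CPM per kb. Ccl2, Ccl8 (16.0), Ccl7 (13.9), Ccl9 (12.5) and Ccl12 (12.2 CPM per kb) followed closely. Within these 5, the gene with the higher mean lay above its neighbour in 4 to 7 of 10 libraries, so that their order did not stand out from the spread. Ccl12 exceeded Ccl3 (3.92 CPM per kb) in 9 of 10 libraries. Ccl3 exceeded Ccl4 (2.91 CPM per kb) in 5 of 10, and Ccl4 exceeded Ccl5 (0.945 CPM per kb) in all 10. Ccl5 exceeded Ccl11 (0.753 CPM per kb) in 6 of 10. Ccl6 made up a median of 40.1% of the summed CPM of the 10 genes, Ccl9 24.2% and Ccl2 11.7%, shares that are not scaled for length.

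**Figure D1:**
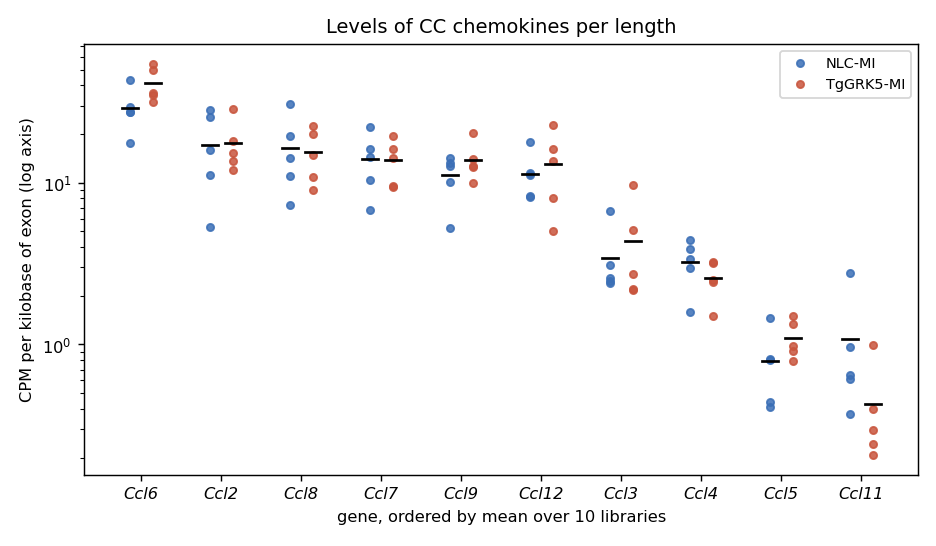
Level of each CC chemokine in CPM per kilobase of exon (log axis), one point per library (5 NLC-MI, 5 TgGRK5-MI), with bars at the group means. Ccl6 lies highest at a mean of 35.2, 5 genes lie between 12.2 and 17.4, and Ccl5 and Ccl11 lie below 1.

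No CC chemokine differed between the groups at an adjusted p under 0.10 (edgeR's quasi-likelihood test, Benjamini-Hochberg over 15232 genes). Of all genes tested, 0.0788% did (12 genes). At an unadjusted p under 0.05 the count was again 0 of 10, against 3.85% of all genes. The groups overlapped for all 10, while 1.00% of all genes had groups that did not overlap. With DESeq2, 0 of 10 passed the adjusted and 1 the unadjusted threshold, which 845 of 28506 genes passed. With limma-voom 0 of 10 passed either, while 1810 of 15232 genes passed the unadjusted threshold. The log2 fold change was above 0 for 6 genes and below 0 for 4, with a median of 0.12, against 0.0013 over all genes tested. The summed level of the 10 genes was 137.9 ± 40.9 CPM in NLC-MI (74.9 to 179.9) and 169.0 ± 35.5 CPM in TgGRK5-MI (131.5 to 224.0), and the ranges overlapped. In these bulk libraries, fewer cells of a type and less RNA per cell cannot be told apart.

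**Figure D2:**
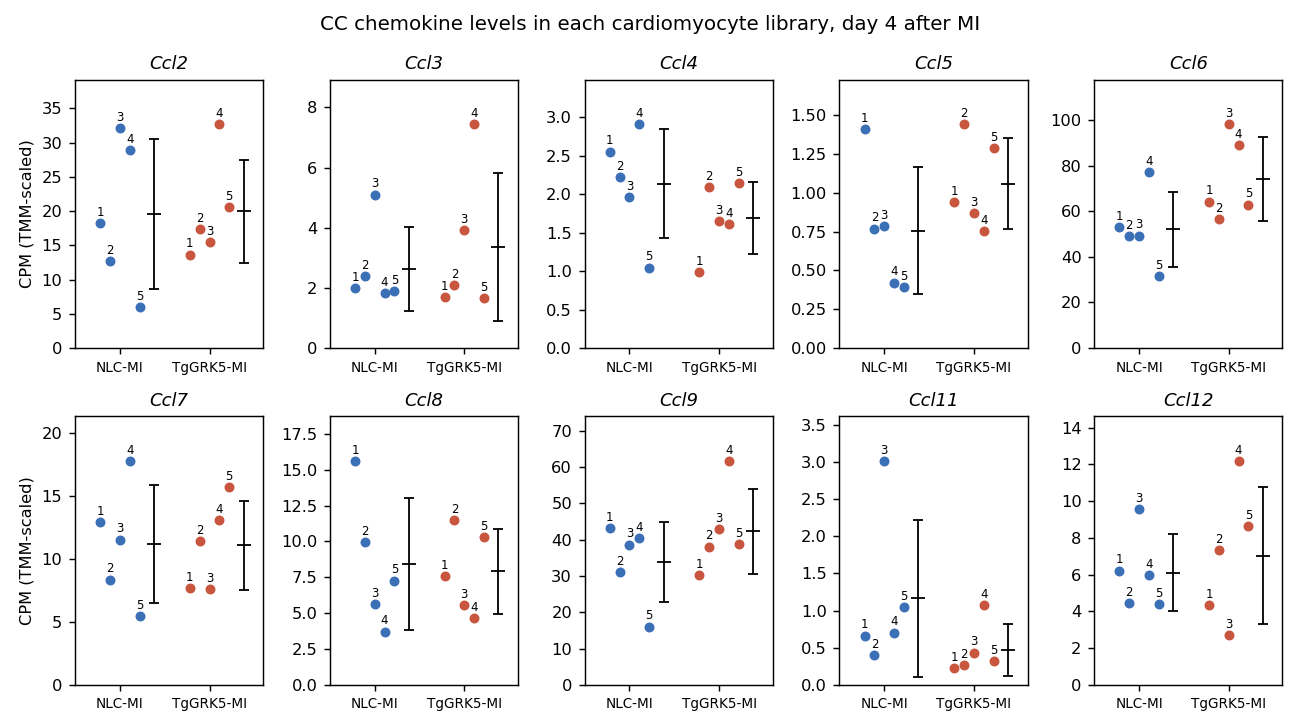
CPM of each CC chemokine in each library, numbered by replicate, on axes that begin at 0; black bars give the mean and SD of 5 libraries per group. The groups overlap in all 10 panels, and NLC-MI replicate 3 stands high for Ccl3 (5.10 CPM) and Ccl11 (3.01 CPM).

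Ccl2 (MCP-1), a ligand of Ccr2, is the main attractant of monocytes. Its level was 18.2, 12.7, 32.1, 28.9 and 6.02 CPM in NLC-MI replicates 1 to 5. In TgGRK5-MI replicates 1 to 5 it was 13.6, 17.3, 15.5, 32.6 and 20.6 CPM. Both the lowest value and the second highest were NLC-MI libraries, and the TgGRK5-MI values fell inside that range but for replicate 4. Its log2 fold change was 0.03 (standard error 0.40, 95% interval -0.84 to 0.89), and the exact two-sided permutation test gave p = 0.722. Ccl7 (MCP-3), which acts through Ccr2 and other receptors, was at 12.9, 8.34, 11.5, 17.7 and 5.43 CPM in NLC-MI and at 7.65, 11.4, 7.56, 13.03 and 15.7 CPM in TgGRK5-MI. All 5 TgGRK5-MI values lay within the NLC-MI range. Its log2 fold change was -0.02 (standard error 0.31, interval -0.70 to 0.66). Ccl12 (MCP-5), a mouse ligand of Ccr2, was at 6.21, 4.45, 9.55, 5.96 and 4.39 CPM in NLC-MI and at 4.34, 7.33, 2.69, 12.2 and 8.64 CPM in TgGRK5-MI. Its highest and its lowest values were both TgGRK5-MI libraries, and the log2 fold change was 0.21 (standard error 0.37, interval -0.59 to 1.02). Ccl8 (MCP-2) was at 15.6, 9.96, 5.63, 3.71 and 7.26 CPM in NLC-MI and at 7.56, 11.5, 5.56, 4.63 and 10.3 CPM in TgGRK5-MI. The TgGRK5-MI libraries again lay inside the NLC-MI range, and the log2 fold change was -0.09 (standard error 0.37, interval -0.91 to 0.72). As fold changes, the intervals ran from 0.56 to 1.86 for Ccl2, 0.62 to 1.58 for Ccl7, 0.66 to 2.02 for Ccl12 and 0.53 to 1.65 for Ccl8. Differences inside them, in either direction, are not excluded by these 5 mice per group.

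Ccl6 and Ccl9, macrophage and myeloid chemokines that bind Ccr1, were the 2 with the highest CPM. Ccl6 was at 53.1, 49.2, 49.3, 77.3 and 31.4 CPM in NLC-MI and at 64.2, 56.5, 98.0, 89.1 and 62.9 CPM in TgGRK5-MI. All 5 TgGRK5-MI libraries lay above the NLC-MI mean of 52.1 CPM, but NLC-MI replicate 4 lay above 3 of them. Its log2 fold change of 0.51 (standard error 0.23, interval -0.00129 to 1.02) had p = 0.0505 unadjusted and 1.00 adjusted (edgeR), and the exact two-sided permutation test gave p = 0.0873. Without NLC-MI replicate 4 it was 0.70 with an unadjusted p of 0.00901, and without NLC-MI replicate 5 it was 0.36 with 0.113, both from edgeR. Ccl9 was at 43.1, 31.01, 38.6, 40.4 and 16.0 CPM in NLC-MI and at 30.2, 38.05, 42.9, 61.6 and 38.7 CPM in TgGRK5-MI. Apart from NLC-MI replicate 5 at the bottom and TgGRK5-MI replicate 4 at the top, the libraries of both groups covered the same range. Its log2 fold change was 0.32 (standard error 0.26, interval -0.25 to 0.90).

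Ccl3, Ccl4 and Ccl5 were present at low levels. Ccl3 (MIP-1 alpha), which binds Ccr1, was at 1.98, 2.39, 5.10, 1.83 and 1.90 CPM in NLC-MI and at 1.70, 2.09, 3.91, 7.43 and 1.66 CPM in TgGRK5-MI. In each group most libraries were near 2 CPM and 1 or 2 stood higher. The log2 fold change of 0.35 (standard error 0.46, interval -0.66 to 1.36) became -0.14 without TgGRK5-MI replicate 4 and 0.66 without NLC-MI replicate 3. Ccl4 (MIP-1 beta) was at 2.55, 2.23, 1.96, 2.91 and 1.05 CPM in NLC-MI and at 0.984, 2.09, 1.65, 1.62 and 2.15 CPM in TgGRK5-MI. The 2 highest values were NLC-MI libraries and the lowest was a TgGRK5-MI library. The log2 fold change was -0.35 (standard error 0.31, interval -1.02 to 0.33). Ccl5 (RANTES), a product of T cells among others, was at 1.41, 0.769, 0.785, 0.422 and 0.393 CPM in NLC-MI and at 0.939, 1.44, 0.869, 0.754 and 1.29 CPM in TgGRK5-MI. It rested on 6 to 33 counts in a library. For Ccl5 the log2 fold change was 0.50 (standard error 0.38, interval -0.33 to 1.32), with 0.33 to 0.87 when each library was left out in turn. Without NLC-MI replicate 1 it was 0.87 with an unadjusted p of 0.0325, and without NLC-MI replicate 4 it was 0.33 with 0.412, both from edgeR.

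Ccl11 (eotaxin), which recruits eosinophils through Ccr3, had the lowest level per length. It was at 15, 10, 23, 15 and 16 counts in NLC-MI and at 5, 6, 5, 10 and 6 counts in TgGRK5-MI, which came to 0.661, 0.405, 3.01, 0.704 and 1.05 CPM against 0.224, 0.262, 0.435, 1.08 and 0.322 CPM. The highest value was in NLC-MI replicate 3, the shallowest library, and TgGRK5-MI replicate 4 lay above 4 of the 5 NLC-MI libraries. The log2 fold change was -1.31 (standard error 0.61, interval -2.64 to 0.02), with p = 0.0532 unadjusted and 1.00 adjusted (edgeR), and the exact two-sided permutation test gave p = 0.119. Without NLC-MI replicate 3 the log2 fold change was -0.75, with an unadjusted p of 0.149 in edgeR, and without TgGRK5-MI replicate 4 it was -1.74, with 0.0162. Its receptor Ccr3 did not pass the filter on low counts.

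The 10 genes varied widely among mice. The highest library exceeded the lowest by 2.96-fold for Ccl4 and by 13.5-fold for Ccl11, with 8 genes between. NLC-MI replicate 5 held the lowest level of 5 genes (Ccl2, Ccl5, Ccl6, Ccl7 and Ccl9), and TgGRK5-MI replicate 4 held the highest level of 4 (Ccl2, Ccl3, Ccl9 and Ccl12). The mean centred log2 CPM of the 10 genes was -0.65 in the former and 0.47 in the latter. In NLC-MI replicate 5 the pan-leukocyte markers were also at their lowest, at 73.2 CPM, and the cardiomyocyte markers at their highest, at 108666 CPM. Fibroblast (2720 CPM), mural cell (697 CPM), neutrophil (10.1 CPM) and monocyte markers (8.44 CPM) were at their lowest there too. So were the mast cell, B cell, and T and NK cell markers. Macrophage (774 CPM) and endothelial markers (722 CPM) were not at their lowest in that library. In TgGRK5-MI replicate 4, the second shallowest library, the neutrophil markers (35.0 CPM) and the endothelial markers (1341 CPM) were at their highest. Macrophage markers stood at 1370 CPM there, below the TgGRK5-MI mean of 1691 CPM. The part of these cell types in the levels of the chemokines was not tested.

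**Figure D3:**
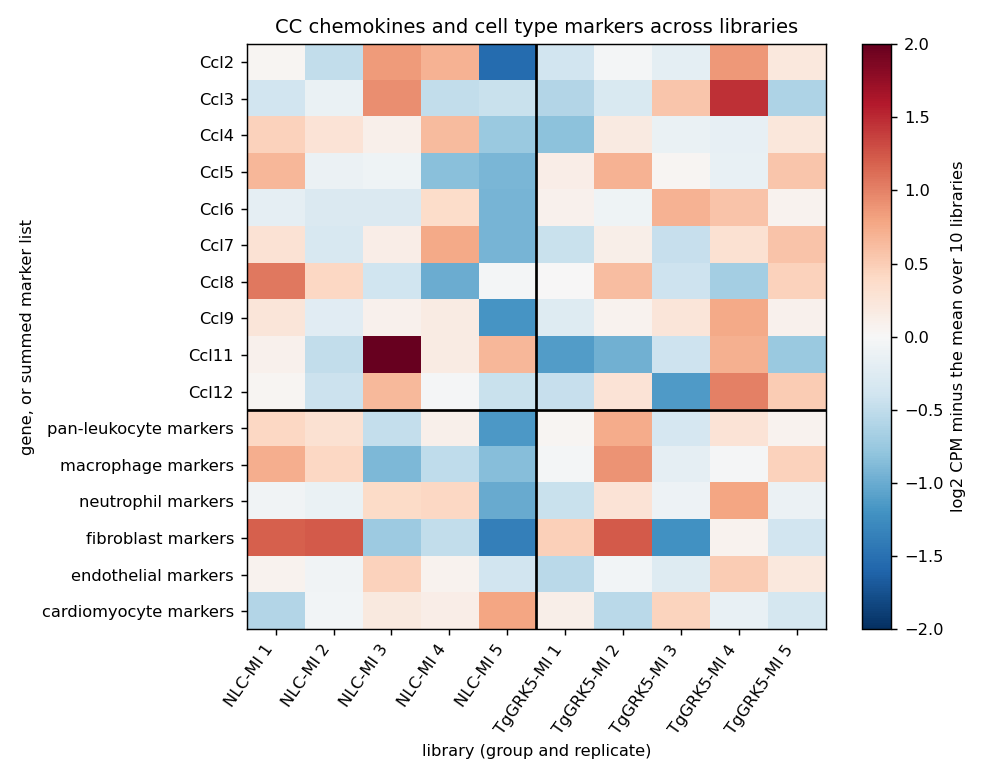
Log2 CPM of the 10 CC chemokines and of 6 summed marker lists in each library, each row minus its mean over 10 libraries (red above, blue below, limits at 2 log2 units). NLC-MI replicate 5 is below the mean for most chemokines and for every marker list shown except the cardiomyocyte markers. No column pattern separates the groups.

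Across the 10 libraries, 34 of the 45 pairs of CC chemokines had a positive Pearson correlation of log2 CPM, with a median r of 0.273 and a range from -0.489 to 0.867. None of the 45 pairs had a Benjamini-Hochberg adjusted permutation p under 0.05. The pair with the highest r was Ccl2 with Ccl9 (r = 0.867, permutation p = 0.00218, adjusted p = 0.0605; rho = 0.721, permutation p = 0.0237, adjusted p = 0.267; n = 10), and r was 0.515 without the 2 libraries farthest from the median of Ccl2. Ccl2 with Ccl7, neighbours in the first block, had r = 0.835 (permutation p = 0.00269, adjusted p = 0.0605) and rho = 0.818 (permutation p = 0.00619, adjusted p = 0.162), and r stayed at 0.731 without the 2 farthest libraries. Within NLC-MI this r was 0.898 and within TgGRK5-MI 0.714. Ccl6 with Ccl9, whose promoters are printed above, had r = 0.807 (permutation p = 0.00797, adjusted p = 0.0941) and rho = 0.624 (permutation p = 0.0594, adjusted p = 0.334), and r was 0.633 without the 2 farthest. The neighbours Ccl8 and Ccl12 had r = -0.046 (permutation p = 0.900, adjusted p = 0.939) and rho = 0.0424 (permutation p = 0.920, adjusted p = 0.962). Median r was 0.200 within the first block, 0.315 within the second and 0.273 between blocks. The genes whose log2 CPM followed the mean of the 10 chemokines most closely were Pf4, itself a chemokine of the CXC family, with r = 0.975, Xkr6 with 0.971, Bcl2a1d with 0.968, AA467197 with 0.964 and Ptpn12 with 0.960. These were the highest of all genes tested over 10 libraries and are given as a description.

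The other genes of the pathway were likewise without a call at an adjusted p under 0.10. Of 11 other CC chemokines 4 passed the filter, and 0 had an unadjusted p under 0.05. Mean levels in NLC-MI and then TgGRK5-MI were 5.08 ± 0.661 and 6.78 ± 2.19 CPM for Ccl27a, 4.72 ± 2.45 and 5.00 ± 2.47 CPM for Ccl21a, and 2.36 ± 0.224 and 2.79 ± 0.915 CPM for Ccl25 (SD, n = 5 each). The fourth, Ccl24 (eotaxin-2), named after its values were seen, was at 1.04 ± 0.641 and 2.08 ± 1.39 CPM, with a log2 fold change of 0.97 (standard error 0.51, interval -0.13 to 2.08) and, in the exact permutation test, p = 0.111. All 4 log2 fold changes were above 0. Ccl27a and Ccl21a have near-identical copies in the mouse genome, so their counts are uncertain. Ccl26 had 0 counts in all 10 libraries.

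Of 10 CC receptors 4 passed the filter, all with a log2 fold change above 0 (median 0.29), and 0 had an unadjusted p under 0.05. Ccr2, the receptor of Ccl2, Ccl7 and Ccl12, was at 24.0 ± 6.02 CPM without and 24.7 ± 9.95 CPM with the transgene, and the next genes are given in the same order. Its log2 fold change came to 0.04 (standard error 0.28, interval -0.56 to 0.64). Ccr1 was at 8.20 ± 3.18 and 10.5 ± 2.32 CPM. All 5 atypical receptors passed the filter and 0 had an unadjusted p under 0.05. Ackr3 (CXCR7) was at 54.8 ± 24.1 and 73.7 ± 13.2 CPM, Ccrl2 at 13.01 ± 2.22 and 10.7 ± 2.64 CPM, and Ackr4, a scavenger of chemokines, at 3.02 ± 1.18 and 4.60 ± 2.46 CPM.

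**Figure D4:**
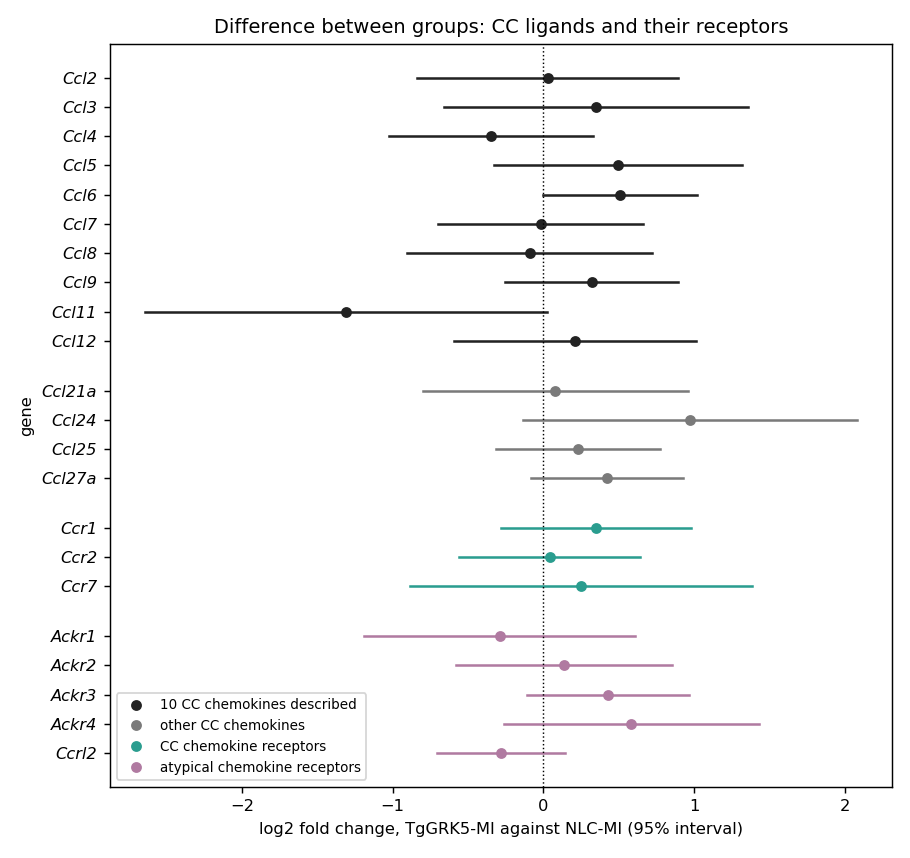
Log2 fold change of TgGRK5-MI against NLC-MI (points) with its 95% interval (lines) from edgeR, for the 10 CC chemokines, the other CC chemokines, 3 CC receptors and the atypical receptors, all of which passed the filter. Every interval shown holds 0; that of Ccl6 begins at -0.00129 and that of Ccl11 ends at 0.02.

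Of 19 genes that carry or end the signal of chemokine receptors, all passed the filter, 1 had an unadjusted p under 0.05 and it was higher in TgGRK5-MI. One call among 19 is close to the share over all genes tested (3.85%). This was Grk3, a kinase of the GRK2 subfamily that phosphorylates activated receptors. It was at 11.5, 15.5, 10.9, 16.0 and 14.7 CPM in NLC-MI and at 23.3, 20.1, 20.7, 18.2 and 19.6 CPM in TgGRK5-MI, and the groups did not overlap, as for 1.00% of all genes. The log2 fold change was 0.57 (standard error 0.16), with an unadjusted p of 0.00335 and an adjusted p of 0.645 (edgeR). The exact permutation test gave p = 0.00794, the smallest that 5 against 5 libraries allow. Gnai2, the main inhibitory G protein of leukocytes, was at 479.5 ± 116.6 and 529.8 ± 173.3 CPM, Gnb1 at 215.1 ± 37.2 and 229.9 ± 31.6 CPM, and Grk2 at 81.4 ± 15.9 and 78.6 ± 10.3 CPM.

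Markers of the cells that could make these ligands did not separate the groups. Macrophage markers summed to 1332 ± 705 CPM in NLC-MI (745 to 2296) and 1691 ± 566 CPM in TgGRK5-MI (1234 to 2586). All 9 had a log2 fold change above 0 (median 0.21) and 0 of 9 had an unadjusted p under 0.05. Adgre1, which encodes F4/80, was at 48.1 ± 29.4 and 54.7 ± 24.3 CPM. Pan-leukocyte markers summed to 156.6 ± 60.01 and 187.3 ± 53.6 CPM, and Ptprc, which encodes CD45, was at 31.1 ± 13.2 and 33.1 ± 12.1 CPM. Monocyte markers summed to 16.1 ± 7.34 and 18.3 ± 6.94 CPM (Ly6c2 at 1.96 ± 0.353 and 2.27 ± 0.569 CPM; Fcnb at 0 counts in all libraries), and neutrophil markers to 20.2 ± 6.84 and 22.3 ± 7.87 CPM (S100a8 at 1.89 ± 1.26 and 2.21 ± 1.38 CPM; Ly6g at 0 or 1 count). The largest parts of the neutrophil sum were Csf3r, at 9.37 ± 3.52 and 10.4 ± 3.12 CPM, and Cxcr2, at 4.72 ± 5.45 and 3.45 ± 2.18 CPM. Both were named after their values were seen. Ly6g and Retnlg of that list did not pass the filter. T and NK cell markers summed to 4.23 ± 2.01 and 4.36 ± 1.23 CPM, with Cd3e at 0 to 4 counts. B cell markers summed to 1.91 ± 0.734 and 2.86 ± 1.29 CPM, and mast cell markers to 15.3 ± 5.74 and 14.3 ± 4.82 CPM, with Cpa3 at 0 to 9 counts. Nearly all of the mast cell sum was Kit, at 14.4 ± 5.90 and 13.3 ± 4.94 CPM, and the other 4 genes of that list did not pass the filter. Fibroblast markers (Col1a1 first) summed to 8832 ± 6699 and 8318 ± 5083 CPM, endothelial markers (Pecam1) to 976.9 ± 207.4 and 955.7 ± 269.9 CPM, and mural cell markers (Rgs5) to 1056 ± 311.9 and 1240 ± 242.8 CPM. Cardiomyocyte markers (Myh6) summed to 70172 ± 24470 and 60288 ± 16639 CPM, and 1 of 7 had an unadjusted p under 0.05, where 3.85% of all genes did. It was Ryr2, named after its values were seen, at 1489 ± 537.7 and 783.0 ± 184.2 CPM, with a log2 fold change of -0.93 (standard error 0.30) and an adjusted p of 0.968 (edgeR). The ranges of the groups overlapped for every list. The part of these cells in the levels of the chemokines was not tested.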

How the data were processed

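RNA-Seq libraries (Illumina TruSeq kit) were made from isolated cardiomyocytes, 1 per mouse, and grouped by their labels. The authors deposited whole-number counts per Ensembl gene, not normalized. The submitters' processing notes name Bowtie2, RSEM 1.2.31, DESeq2 and the mm10 build without their roles. RSEM estimates counts, so the deposited counts may be rounded estimates. Strand setting and annotation are not given in the sources used here.

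Symbols, positions and exon lengths came from GENCODE M21 (51596 of 51789 identifiers). In R 4.3.3 and edgeR 4.0.16, counts were scaled with TMM, filtered with filterByExpr (15232 of 28506 genes with a count) and compared with the quasi-likelihood test. Adjustment was by Benjamini-Hochberg over all genes tested, at an adjusted p under 0.10 and an unadjusted p under 0.05. Log2 CPM used a prior count of 2. Single genes were also tested with exact permutation over 252 placements, and correlations with permutation in scipy 1.17.1. Totals per library set the precision, and the counting floor covers counting error only. P-values of the group comparisons set each difference against the spread between these mice, which edgeR estimates with all genes. Those of the correlations come from permuting the libraries. The fits were tested on simulated data.

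The 10 genes and all lists were chosen with earlier results of these data known. Named were all 10 chemokines, pathway genes with an unadjusted p under 0.05, the 3 most abundant of each pathway list, the sum and first gene of each marker list, and the 5 genes most like the chemokines' mean. Some genes that the rule names are not reported here. Promoters were from RefSeq, and 6 motifs were searched in them first and 2 more after they had been read. Alternatives were RLE factors, library size alone, DESeq2 1.42.0, limma-voom (limma 3.58.1), no filter, at least 10 counts in every library, a robust fit, a prior count of 0.5, each library left out and the replicate number as a block. A fit without the 2 shallowest libraries was added after the totals were seen.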

Additional observations from a re-analysis of the deposited data

Results flagged for a closer look

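Ccl3 in NLC-MI had 1 library far from the others. On the log2 CPM scale NLC-MI replicate 3 was at 2.38 and the next library at 1.32, a gap that made up 0.744 of the group's range, above Dixon's 95% critical value of 0.71 for 5 samples. This library was also the shallowest. Of 20 groups examined on this scale (10 genes in 2 groups) 1 was so marked, and chance marks about 1 in 20. On the CPM scale, examined afterwards, 3 of 20 were marked, with gap shares of 0.829 for Ccl3 in NLC-MI (replicate 3), 0.753 for Ccl11 in NLC-MI (replicate 3) and 0.753 for Ccl11 in TgGRK5-MI (replicate 4), so the number depends on the scale.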

How the results depend on the processing

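No CC chemokine passed an adjusted p under 0.10 in any alternative, and the lowest adjusted p was 0.428 (Ccl4, limma-voom). At an unadjusted p under 0.05, 0 of 10 passed in edgeR, where 586 of 15232 genes did. With DESeq2 1 passed (Ccl11), as did 845 of 28506 genes. With no filter 2 passed (Ccl6 and Ccl11), as did 1163 of 28506 genes. With the robust fit 1 passed (Ccl6), as did 611 of 15232 genes. From 0 to 2 passed with a library left out, against 457 of 15308 to 1069 of 15568 genes. The 2 were Ccl5 and Ccl11 without NLC-MI replicate 1, where 793 of 15306 genes passed. With the replicate block 2 passed (Ccl6 and Ccl11), as did 604 of 15232 genes. The replicate numbers do not pair the mice by the labels. Each gene's log2 CPM was also taken as its deviation from the mean of its group. Over all genes tested, these deviations correlated between same-numbered libraries at 0.0717, 0.662, 0.381, -0.341 and 0.0848. CC receptors stayed at 0 throughout. Signs turned for 5 genes whose fold changes were small against their errors. With limma-voom the log2 fold change was -0.10 for Ccl3 and 0.011 for Ccl7, and with the replicate block 0.019 for Ccl7. With each library left out it ran from -0.22 to 0.27 for Ccl2, -0.14 to 0.66 for Ccl3, -0.20 to 0.21 for Ccl7, -0.28 to 0.24 for Ccl8 and -0.058 to 0.41 for Ccl12. The cause was not tested. The mean difference in log2 CPM over the 10 genes, 0.06, ran from -0.10 without NLC-MI replicate 5 to 0.17 without NLC-MI replicate 3. Without the 2 shallowest libraries it was 0.06 over all 10 genes and 0.17 over the 9 that then passed the filter, which leave out Ccl11. Ccl5 and Ccl11 did not pass the filter of 10 counts in every library. Over all genes, 12 passed the adjusted threshold in edgeR, 69 with DESeq2, 50 with limma-voom, 7 without the 2 shallowest libraries and 3 to 10 with a library left out. At the unadjusted threshold 1810 of 15232 genes passed with limma-voom, where 0 of the 10 CC chemokines did.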
